A study of Mus musculus with 6 samples.

Results

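Carboxylesterases are serine hydrolases of the endoplasmic reticulum that split ester bonds in stored lipids and in ester drugs. The group described here holds 10 mouse liver genes, namely 9 carboxylesterases (Ces1d, Ces1e, Ces1f, Ces1g, Ces2a, Ces2c, Ces2e, Ces3a and Ces3b) and Aadac, a related esterase anchored in the same membrane. A probe set was taken where its only annotated gene symbol was one of these, which gave 9 probe sets of 7 genes, out of 45101 probe sets and 18193 named genes in all. No single-symbol probe set was found for Ces2c, Ces3a or Ces3b, and the 1 probe set annotated to Ces3a and Ces3b together is not analysed here. All 7 genes passed the filter on dim probe sets and were well above it in both groups.

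Gene expression was measured with Affymetrix arrays in livers of 6 male mice, 1 array per mouse. The 3 ChLO mice, a liver-specific Chrebp knockout, come from a cross of floxed Chrebp mice with albumin-Cre mice. The albumin promoter drives Cre mainly in hepatocytes, so other liver cells keep the gene. The 3 WT mice are wild type, and whether they carried floxed alleles or Cre is not stated in the labels. All mice were 12 weeks old when they were put on a diet with 60% sucrose, which they ate for 1 week. Chrebp, now named Mlxipl, encodes a transcription factor that responds to carbohydrate and drives genes of glycolysis and fat synthesis. The comparison asks how the transcripts of these esterases differ when that factor is deleted in hepatocytes of sucrose-fed mice.

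Several of these enzymes act on triglyceride in hepatocytes. Ces1d, long known as triacylglycerol hydrolase, works in the lumen of the endoplasmic reticulum and helps to supply stored triglyceride for VLDL, the lipoprotein that carries fat out of the liver. Ces1 enzymes tend to act on esters of small alcohols and large acyl groups, and Ces2 enzymes on the reverse. The mouse genes arose by repeated duplication, so close relatives can be hard to tell apart by hybridization.

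Values are log2 signals, in which a step of 1 is a doubling, and differences are ChLO minus WT. Between 6.38 and 6.60 lay the medians of the 6 arrays. Mlxipl itself read 10.34, 11.22 and 11.48 in ChLO 1, 2 and 3, against 12.61, 12.56 and 12.59 in WT 1, 2 and 3, a difference of -1.57 (SE 0.28). Every ChLO array thus lay below every WT array for the deleted gene, although it was not established here whether its probe set lies in the deleted exons. Hepatocyte markers were bright in all arrays, with Alb, the albumin gene, between 15.31 and 15.67 in ChLO and between 15.52 and 15.85 in WT. Correlations between arrays over all genes tested ran from 0.894 (ChLO 1 with WT 2) to 0.954 (WT 2 with WT 3). ChLO 3 reached 0.898 with ChLO 1 and 0.9318 with ChLO 2. It correlated more with each WT array, at 0.936, 0.9525 and 0.9504 for WT 1, 2 and 3.

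Of the 7 measured esterases, 6 had a lower mean signal in ChLO livers than in WT livers, against 43.5% of all 12598 genes tested. Ces2a, Ces2e and Aadac were lower in all 3 ChLO livers than in any WT liver, by 2.41-fold, 2.04-fold and 1.69-fold. Ces1e and Ces1f were lower in ChLO 1 and ChLO 2 but not in ChLO 3. Ces1d and Ces1g showed no common direction among the 3 ChLO livers, and the lower mean of Ces1d turned into a difference of 0.02 when arrays were scaled to the spike-in controls. None of these differences passed the threshold over all genes tested, an adjusted p of 0.05.

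Limma called 0 of the 7 genes at that threshold, as it called 0% of all genes tested. At an unadjusted p under 0.05, 3 of the 7 were lower and 0 were higher, where 3.5% of all genes tested were lower and 5.46% higher by the same rule. The groups did not overlap for 3 of the 7, all lower in ChLO, where the shares over all genes were 6.19% lower and 9.04% higher. The median difference over the 7 genes was -0.78, against 0.06 over all genes tested. With 1 array omitted at a time it lay between -1.05 (without ChLO 3) and -0.49 (without ChLO 1). Scaling the arrays to the spike-in controls moved the median of all genes to 0.31, with 2677 of the 12598 genes below 0. At an unadjusted p under 0.05 in limma, 1.42% of genes were then lower and 14.6% higher. The same 3 esterases were lower by that rule under spike-in scaling too, with a median over the 7 of -0.53.

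**Figure D1:**
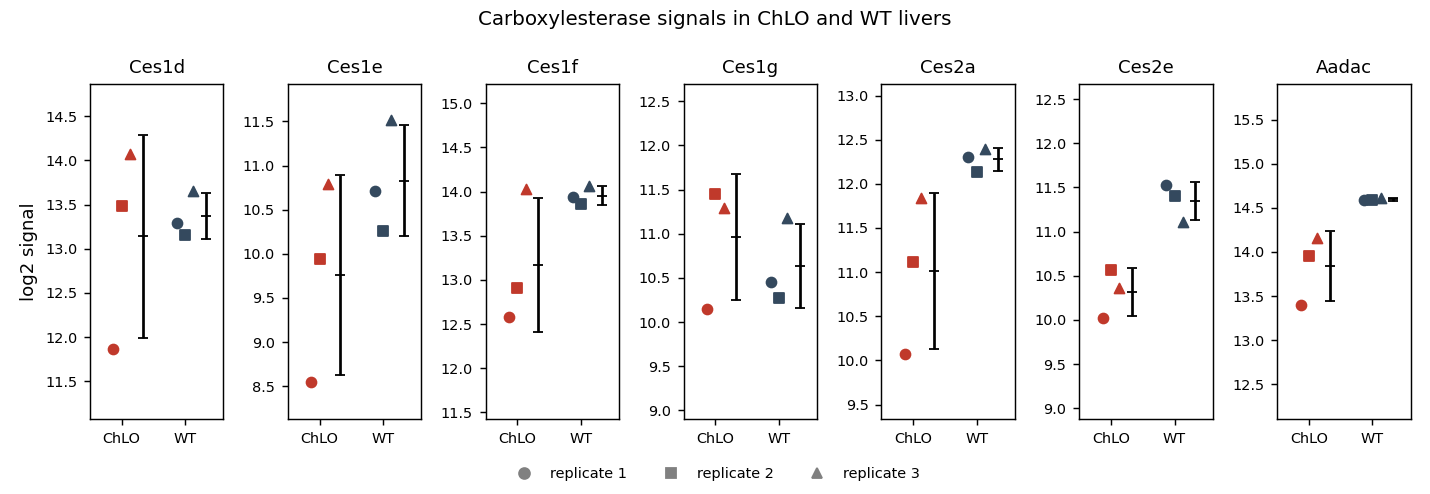
Log2 signal of the 7 measured genes, 1 panel each with its own axis of equal span, in 3 ChLO livers (red) and 3 WT livers (dark blue). Points are single mice and bars give the mean ± SD (n = 3). For Ces2a, Ces2e and Aadac the ChLO and WT points do not overlap, and for the other 4 genes they do.

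Ces2e encodes a liver and gut esterase of the Ces2 group. It read 10.02, 10.57 and 10.36 in ChLO 1, 2 and 3, against 11.53, 11.41 and 11.11 in WT 1, 2 and 3. All 3 ChLO livers lay below the lowest WT liver, and the ChLO livers lay close together. The means were 10.32 ± 0.27 in ChLO and 11.35 ± 0.21 in WT (SD, n = 3 each). The difference was -1.03 (SE 0.20, 95% interval -1.50 to -0.56), with a limma p of 9.97e-04 and an adjusted p of 0.228. This was the smallest p of the 7, and the gene stood at rank 55 by p among all genes tested.

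Ces2a, whose product hydrolyses diacylglycerol and triglyceride as well as drug esters, read 10.08, 11.11 and 11.84 in ChLO 1, 2 and 3. In WT 1, 2 and 3 it read 12.31, 12.13 and 12.39. The ChLO livers were spread over a wide range, with ChLO 1 lowest, and all lay below the WT livers. The means were 11.01 ± 0.88 in ChLO and 12.28 ± 0.13 in WT (SD, n = 3 each). The difference of -1.27 (SE 0.39, 95% interval -2.18 to -0.36) had the largest size of the 7, with a limma p of 0.0125 and an adjusted p of 0.455. Leaving out ChLO 3 gave -1.68 with a limma adjusted p of 0.0347, and leaving out ChLO 1 gave -0.80 with an adjusted p of 0.581.

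Aadac, arylacetamide deacetylase, removes acyl groups from drugs and has been linked to the turnover of stored triglyceride. Its signal was 13.40, 13.96 and 14.16 in ChLO 1, 2 and 3, against 14.59, 14.58 and 14.62 in WT 1, 2 and 3. The WT livers were nearly equal, and the 3 ChLO livers were each lower. The means were 13.84 ± 0.40 in ChLO and 14.60 ± 0.02 in WT (SD, n = 3 each), a difference of -0.76 (SE 0.22, 95% interval -1.27 to -0.25). Limma gave a p of 0.00920 and an adjusted p of 0.451. The order of the 3 ChLO livers was the same for Aadac as for Ces2a, and also for Ces1d, Ces1e, Ces1f and Mlxipl.

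The promoters of these 3 genes are shown because they are the ones with no overlap between groups. They run from 250 bases before to 50 bases after the RefSeq start on build GRCm38.p6, and capitals mark matches to 6 short motifs. The motifs, searched on both strands, were CACGTG (the E-box), the carbohydrate response element ChoRE that ChREBP binds with its partner Mlx (a pair of E-box-like parts 5 bases apart), AGGTCA (a nuclear receptor half-site), CAAAGT (part of the site of the liver factor HNF4 alpha), GTTAAT (an HNF1 half-site) and TATAAA.
Ces2e, chr8:104926010-104926309, plus strand: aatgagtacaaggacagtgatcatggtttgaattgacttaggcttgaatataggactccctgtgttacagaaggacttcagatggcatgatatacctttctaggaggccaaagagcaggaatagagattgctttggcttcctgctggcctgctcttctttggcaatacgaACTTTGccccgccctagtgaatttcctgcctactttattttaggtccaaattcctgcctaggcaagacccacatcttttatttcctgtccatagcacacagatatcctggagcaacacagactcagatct
Ces2a, chr8:104733753-104734052, plus strand: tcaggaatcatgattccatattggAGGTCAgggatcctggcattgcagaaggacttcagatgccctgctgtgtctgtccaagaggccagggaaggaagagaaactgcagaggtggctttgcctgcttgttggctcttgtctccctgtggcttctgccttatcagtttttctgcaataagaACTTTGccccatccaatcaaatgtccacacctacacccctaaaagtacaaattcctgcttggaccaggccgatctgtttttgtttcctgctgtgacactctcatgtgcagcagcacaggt
Aadac, chr3:60031538-60031837, plus strand: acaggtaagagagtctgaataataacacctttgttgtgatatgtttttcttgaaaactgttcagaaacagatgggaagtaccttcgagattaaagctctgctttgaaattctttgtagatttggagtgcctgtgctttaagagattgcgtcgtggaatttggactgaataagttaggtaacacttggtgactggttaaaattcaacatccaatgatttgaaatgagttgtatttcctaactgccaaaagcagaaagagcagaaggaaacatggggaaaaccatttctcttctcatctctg

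In both Ces2 promoters the capitals ACTTTG are a CAAAGT match on the opposite strand, from base -80 to -75 in Ces2e and from -70 to -65 in Ces2a. Such a match occurs in 14.4% of 32851 RefSeq promoters of this length. Ces2a also holds AGGTCA from -226 to -221, a motif found in 16.3% of promoters. Aadac held none of the 6 motifs in this window. Promoters were in the table for 7 of the 10 listed genes (Aadac, Ces1e, Ces1g, Ces2a, Ces2c, Ces2e and Ces3b), and 0 of these 7 held the E-box CACGTG, which 7.15% of all promoters hold. None of the 7 held the ChoRE pattern either, which was found in 9 of the 32851 promoters (0.0274%). A pattern this rare would be absent from almost any 7 promoters of this length, so its absence is not informative here. Whether these genes have a ChREBP site was therefore not tested. TATAAA was present in Ces1g and Ces3b (13.6% of all promoters) and GTTAAT in Ces3b (7.1%). No motif was shared by Ces2e, Ces2a and Aadac.

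The Ces1 group was less uniform. Ces1f, a relative of Ces1d that also hydrolyses triglyceride, read 12.58, 12.90 and 14.03 in ChLO 1, 2 and 3, against 13.94, 13.85 and 14.07 in WT 1, 2 and 3. ChLO 1 and ChLO 2 lay below all WT livers, and ChLO 3 lay among them. The difference was -0.78 (SE 0.35, 95% interval -1.59 to 0.02), with a limma p of 0.0550 and an adjusted p of 0.564. The fit without ChLO 3 gave -1.21 (limma adjusted p = 0.0203), and that without ChLO 1 gave -0.49 (adjusted p = 0.878). This probe set is of a type that can match several transcripts, so signal from other Ces1 genes cannot be told apart from that of Ces1f.

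Ces1e encodes egasyn, which holds beta-glucuronidase in the endoplasmic reticulum. It read 8.54, 9.94 and 10.79 in ChLO 1, 2 and 3, against 10.71, 10.26 and 11.51 in WT 1, 2 and 3. ChLO 1 and ChLO 2 were below the lowest WT liver, while ChLO 3 lay within the WT range. The difference was -1.07 (SE 0.55, 95% interval -2.35 to 0.21), with a limma p of 0.0903 and an adjusted p of 0.60. It ranged from -1.59 without ChLO 3 to -0.46 without ChLO 1. The spread among WT livers was the widest of the 7 genes (SD 0.63, n = 3).

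Ces1d, the triacylglycerol hydrolase, was measured by 3 probe sets. On the brightest, its log2 signal was 11.86, 13.48 and 14.08 in ChLO 1, 2 and 3, against 13.30, 13.16 and 13.65 in WT 1, 2 and 3. ChLO 1 was below and ChLO 3 above all WT livers. The difference was -0.23 (SE 0.50, 95% interval -1.40 to 0.94; limma adjusted p = 0.899), and it was 0.41 without ChLO 1.

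A second Ces1d probe set, of the type made to match 1 transcript, gave 10.88, 12.96 and 13.72 for ChLO 1, 2 and 3, against 13.16, 13.10 and 13.33 for WT 1, 2 and 3. The third gave 9.33, 10.67 and 11.37 for the ChLO livers, against 10.86, 11.87 and 10.63 for the WT livers. With probe sets as the unit of the fit, their differences were -0.67 (SE 0.61) and -0.66 (SE 0.52), and neither passed (adjusted p = 0.782 and 0.747). All 3 probe sets were thus lower on average in ChLO, and on each of them ChLO 1 read lowest and ChLO 3 highest of the ChLO livers.

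Ces1g, a hydrolase whose loss in mice raises blood lipids and liver fat synthesis, was the one gene with a higher mean in ChLO. Its signal was 10.15, 11.45 and 11.30 in ChLO 1, 2 and 3, against 10.45, 10.28 and 11.18 in WT 1, 2 and 3. ChLO 1 lay below every WT liver and ChLO 2 and 3 above every one. The difference was 0.33 (SE 0.38, 95% interval -0.55 to 1.21; limma adjusted p = 0.792). Without ChLO 1 it was 0.74, with an unadjusted p of 0.0316 and an adjusted p of 0.767. It was 0.085 without ChLO 2, 0.16 without ChLO 3, 0.15 without WT 2 and 0.60 without WT 3.

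**Figure D2:**
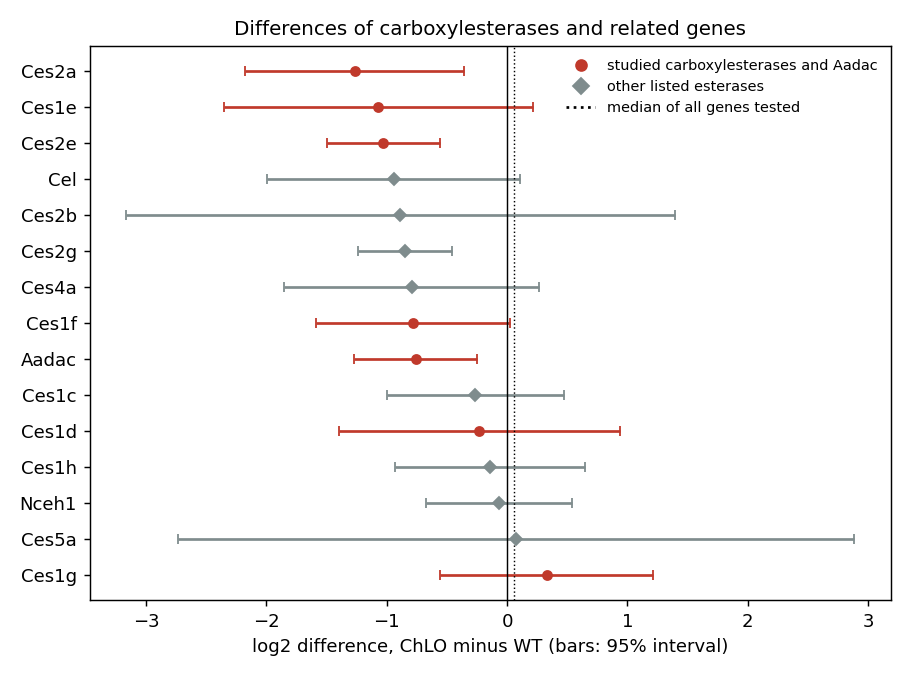
Log2 difference (ChLO minus WT) with its 95% interval for the 7 measured genes (red circles) and 8 other listed esterases (grey diamonds), sorted by size, from limma on 3 ChLO and 3 WT arrays. The dotted line is the median of all genes tested (0.06). The intervals of Ces2a, Ces2e, Aadac and Ces2g lie below 0.

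The 3 ChLO livers were not alike. Measured from each gene's WT mean, the median over the 7 genes stood at -1.38 for ChLO 1, at -0.78 for ChLO 2 and at -0.04 for ChLO 3. The same median ran from -0.15 to 0.11 in the WT livers. In ChLO 1 all 7 genes lay below their WT mean, at deviations between -0.49 (Ces1g) and -2.29 (Ces1e). In ChLO 2 it was 5 of 7 and in ChLO 3 it was 4 of 7. In ChLO 3, Ces2e was lowest at -0.98, while Ces2a and Aadac both stood at -0.44.

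Markers of other cell types also differed among the ChLO livers, in an order that varied by list. Their medians from the WT mean in ChLO 1, 2 and 3 were 1.87, 1.89 and -0.01 for stellate cells and fibroblasts. For myeloid markers they were 1.94, 0.84 and -0.19, and for cholangiocyte markers 0.90, 1.11 and -0.03. The endothelial medians were 0.22, 0.55 and 0.05. All 12 stellate cell and fibroblast markers were higher on average in ChLO, as were 8 of 10 myeloid, 5 of 6 cholangiocyte and 8 of 10 endothelial markers. Their summed linear signals ranged from 9234 to 29310 in ChLO and 7818 to 12140 in WT for stellate cells and fibroblasts, and from 9414 to 29430 in ChLO and 10290 to 11170 in WT for myeloid cells. For cholangiocytes the sums were 380.8 to 1614 in ChLO and 290 to 439.9 in WT, and for endothelial cells 11680 to 15310 in ChLO and 10400 to 12540 in WT. None of the tested defining markers was at 0, and Krt7, a cholangiocyte keratin, was near the filter level of 5.50, at 5.04 to 5.90 in ChLO and 4.59 to 6.75 in WT.

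All 10 tested hepatocyte markers had lower means in ChLO, with a median difference of -0.30, which was -0.02 with 6 of 10 lower after quantile normalization and -0.05 with 8 of 10 lower under spike-in scaling. Their summed signal was 366800 to 445000 in ChLO and 462700 to 536400 in WT. In bulk liver, fewer hepatocytes and less of a transcript per hepatocyte cannot be told apart, and the part of these markers in the esterase result was not tested. Asgr1, an asialoglycoprotein receptor subunit of hepatocytes, had the smallest p of its list, with a difference of -0.83 (SE 0.28) and no overlap between groups. The groups did not overlap for 5 of the 10 hepatocyte markers, all lower in ChLO, where the share over all genes tested was 6.19%. In ChLO 3 the medians of the stellate, cholangiocyte and endothelial markers were -0.01, -0.03 and 0.05 from the WT mean, within the WT range. The myeloid and hepatocyte medians in ChLO 3 were -0.19 and -0.16, both below every WT liver, and the summed hepatocyte signal of 445000 was below the WT minimum of 462700.

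**Figure D3:**
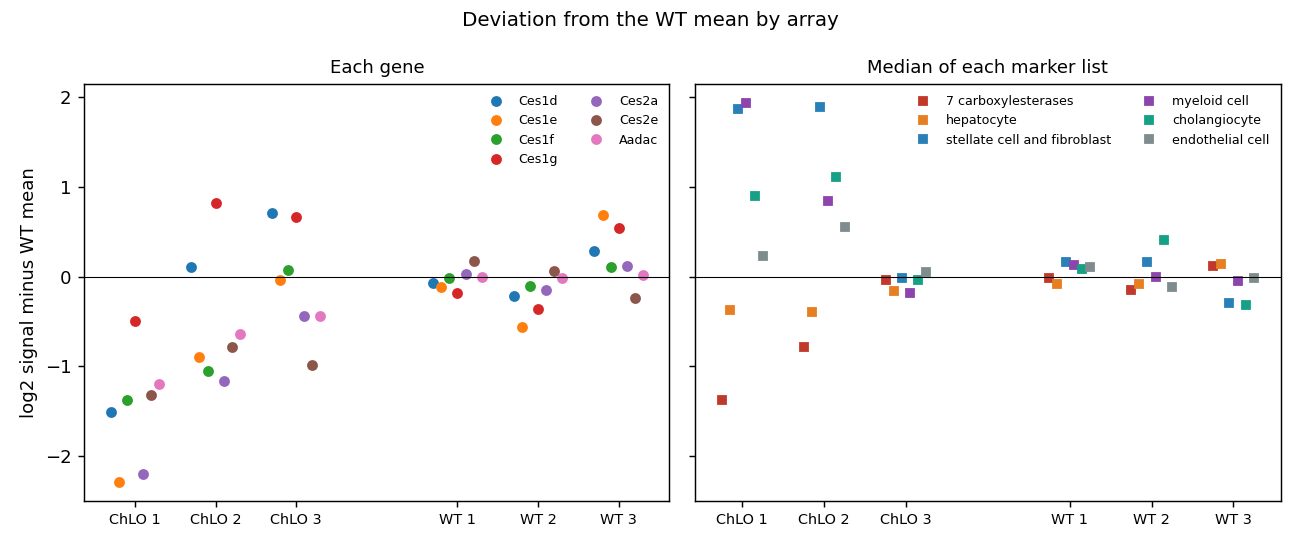
Deviation of log2 signal from the WT mean on each array, for the 7 measured genes (left) and as the median of each marker list (right), with the ChLO arrays left of the WT arrays. The esterase median is lowest in ChLO 1 (-1.38) and near the WT level in ChLO 3 (-0.04), and the stellate cell and myeloid medians are high in ChLO 1 and ChLO 2 alone.

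**Figure D4:**
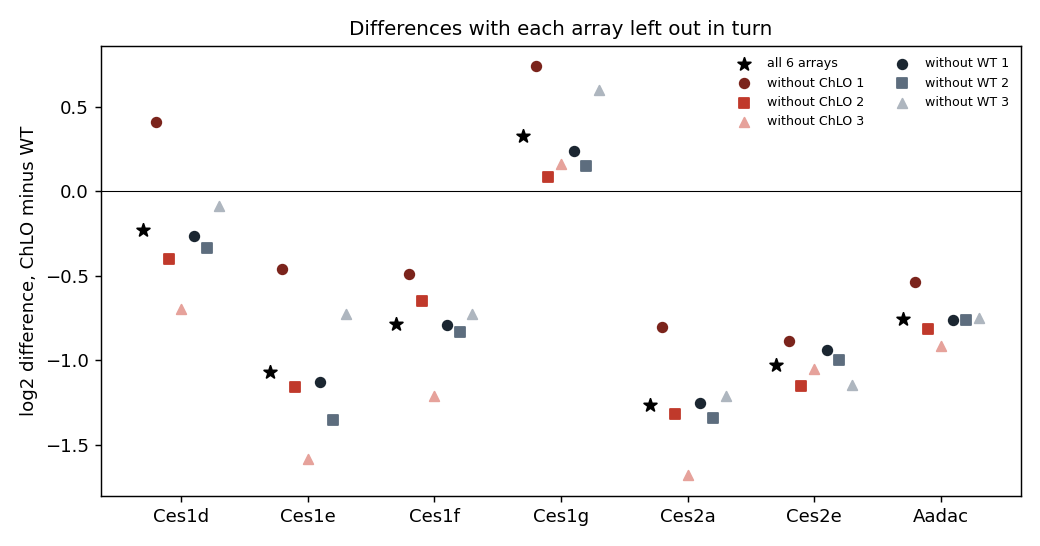
Log2 difference (ChLO minus WT) of the 7 genes with all 6 arrays (star) and with each array left out in turn. Ces2a, Ces2e, Aadac, Ces1e and Ces1f stay below 0 in all 7 fits, Ces1g stays above 0, and Ces1d crosses 0 without ChLO 1.

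Of 20 other listed carboxylesterases and arylacetamide deacetylase relatives, 8 were tested. Limma called 0 of the 8 at an adjusted p of 0.05, and 1 was lower at an unadjusted p under 0.05, as were 3.5% of all genes tested. Their median difference was -0.53, with 7 of 8 lower, or -0.28 with 5 of 8 lower under spike-in scaling. Ces2g, a neighbour in the Ces2 group, read 9.53, 9.28 and 9.57 in ChLO 1, 2 and 3, against 10.31, 10.37 and 10.25 in WT 1, 2 and 3. All 3 ChLO livers lay below all 3 WT livers, with a difference of -0.85 (SE 0.17) and a limma adjusted p of 0.228. Ces2g was named for the smallest p of its list, in which 2 of the 8 had no overlap between groups, both lower in ChLO. The share over all genes tested was 6.19%. Ces2a and Ces2e had no overlap either, but this grouping was made with the values known. Ces2b, a dimmer relative named after its values were seen, did overlap, at 6.55, 8.49 and 4.05 in ChLO and 7.41, 6.67 and 7.66 in WT. Cel, the bile salt lipase, differed by -0.94 (SE 0.45) near the filter level, and Ces4a by -0.79 (SE 0.46), without passing. Of 16 other serum and liver esterases, such as the paraoxonases and acyl-CoA thioesterases, 8 were lower and 8 higher, with a median of -0.02, or 0.23 with 4 of 16 lower under spike-in scaling. Among these, Acot2, a mitochondrial acyl-CoA thioesterase, differed by 1.01 (SE 0.40), Abhd2, a lipase of the alpha/beta hydrolase fold, by 0.73 (SE 0.35) and Pon3, a paraoxonase, by 0.40 (SE 0.20), none past the adjusted threshold.

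Genes that handle triglyceride beside these esterases were taken from a list of lipid hydrolysis and VLDL loading. Of its 20 tested genes, 14 were lower, 0 passed the adjusted threshold, and 6 were lower and 0 higher at an unadjusted p under 0.05. The shares over all genes tested by that last rule were 3.5% lower and 5.46% higher. The list median was -0.44, or -0.19 with 13 of 20 lower under spike-in scaling. Pnpla7, a lysophospholipase, differed by -1.35 (SE 0.21), Mttp, which loads lipid onto apolipoprotein B, by -1.09 (SE 0.20), and Mgll, monoacylglycerol lipase, by -1.67 (SE 0.46). These 3 were named for the smallest p of the list, and none of them had overlap between groups. Over the list, the groups did not overlap for 6 of the 20, all lower in ChLO, where the share over all genes tested was 6.19%.

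Of 17 tested transcription factors linked to carboxylesterase genes, 14 were lower, with a median of -0.36, or -0.11 with 12 of 17 lower under spike-in scaling. At an unadjusted p under 0.05, 3 were lower and 1 higher, and 0 passed after adjustment. The shares over all genes tested by that rule were 3.5% lower and 5.46% higher. Mlxipl, the gene deleted by design, is counted among both the 14 and the 3. The other factors lower by that rule were Nr0b2, the repressor SHP, at -0.91 (SE 0.22), and Srebf1, a lipogenic factor, at -1.19 (SE 0.32). Of 18 genes that respond to the drug receptors CAR and PXR, which are known to induce several Ces2 genes, 7 were lower and 11 higher, with a median of 0.16, or 0.41 with 6 of 18 lower under spike-in scaling. Abcc3, an export pump, differed by 1.32 (SE 0.25), Gsta2, a glutathione transferase, by 2.18 (SE 0.42) and Cyp2c29, a cytochrome P450, by -1.72 (SE 0.35), so this list did not share one direction. At an unadjusted p under 0.05, 1 was lower and 3 were higher, beside the same shares over all genes tested, and 0 passed after adjustment.

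Many carboxylesterases are held in the endoplasmic reticulum by retrieval receptors. Of 13 tested genes for those receptors and for folding factors of that compartment, 11 were lower with a median of -0.11. Under spike-in scaling 2 were lower, with a median of 0.14. That scaling moved all genes upward, to a median of 0.31 with 2677 of 12598 lower. Ero1b, an oxidase that helps form disulfide bonds, differed by -0.93 (SE 0.25), and P4hb, protein disulfide isomerase, by -0.41 (SE 0.18). Hsp90b1, a chaperone, differed by -0.18 (SE 0.19), and by 0.07 under spike-in scaling. None of the 13 passed after adjustment.

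The 5 other genes whose pattern over the 6 arrays was most like the mean of the 7 esterases are given by their correlation with it. They were Ugt2b5 (Pearson r 0.998), Brap (0.993), Ikzf5 (0.991), Klkb1 (0.990) and Sdr9c7 (0.989). Ugt2b5, a glucuronosyltransferase of the endoplasmic reticulum, read 14.22, 14.77 and 15.02 in ChLO 1, 2 and 3, against 15.00, 14.91 and 15.16 in WT 1, 2 and 3. Its ChLO 1 value was thus low and its ChLO 3 value lay within the WT range. Of the 7 esterases, Ces1e and Ces1f had such a ChLO 3 value, while that of the others lay outside the WT range. These correlations rest on 6 arrays and are given as a description.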

How the data were processed

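RNA from livers of 6 mice, 3 ChLO and 3 WT, was hybridized to Affymetrix arrays. The authors deposited log2 signals for 45101 probe sets; MAS5 is named in the submitters' processing notes, without version or parameters. From the values, the mean linear signal of every array was 500 after trimming 2% from each end, so each array was scaled to the same average. No detection calls or scanner files were used here, and a genome build entered only through the promoter sequences (GRCm38.p6).

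Probe sets were named through the platform annotation. The 64 control probe sets and those with a mean under the 40th percentile (5.50) were left out, and each gene was represented by its brightest probe set, giving 12598 genes. ChLO and WT were compared with limma 3.58.1 in R 4.3.3 (lmFit, eBayes with a trend) and p-values were adjusted by Benjamini-Hochberg over all genes. The labels call the arrays biological replicates, and the number of arrays limits the precision. The procedure was tested on simulated data. Members and lists were chosen with earlier results of these data known. Named were all members, Mlxipl, up to 3 genes of smallest p in each list and the 5 genes most like the members. Alb, Krt7, Cldn7, Sox9, Timp1 and Ces2b were named after their values were seen. Same-numbered arrays did not deviate together (correlations 0.304, -0.166 and 0.0631), so numbers were not taken as pairs.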

Additional observations from a re-analysis of the deposited data

How the results depend on the processing

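Ces1e, Ces1f, Ces2a, Ces2e and Aadac kept a negative difference and Ces1g a positive one in every alternative in which they were tested (Ces1f was not tested without probe sets of several transcripts). These were quantile normalization, equal medians, spike-in scaling, other filters, other moderation, array weights, other probe set choices, raising low values to the filter level, the replicate block and leaving out each array. Ces1d turned to 0.0199 under spike-in scaling and ranged from -0.70 to 0.41 when an array was left out. The number of members called at an adjusted p of 0.05 was 4 with array weights, a fit in which ChLO 2 had a weight of 4.58 against 0.371 in ChLO 3 and which stopped before convergence, and 0 to 2 when an array was left out, with 2 without ChLO 3. The number lower at an unadjusted p under 0.05 was 5 with array weights, 5 with the replicate block and 3 to 5 when an array was left out, with 5 without ChLO 3. By that rule 9.96% of all genes tested were lower with array weights and 8.04% without ChLO 3. The share was 4.28% with the block and 3.5% in the main fit. The block called 0 members and 1 gene in all after adjustment, and not every array correlated best with its own number. Of all genes tested, 302 were called without ChLO 3, 568 with array weights, 4 without ChLO 1, 3 without a filter and 6 with low values raised, against 0 in the main fit; 8 of 27022 probe sets were called when they were the unit. The causes were not tested. The number of arrays, 3 a group, limits the precision of every difference.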
